A study of Gallus gallus with 18 samples.

Results

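The genes described here were well expressed in proliferating chicken erythroblasts, were lower in lymphoid cells, and fell when the erythroblasts were induced to differentiate. Members were chosen from RNA-seq read counts scaled as CPM, the number of reads of a gene per 1000000 reads assigned to genes, averaged over 2 libraries per cell type. A gene was a member when its mean in proliferating cells was at least 10 CPM, at least 3 times the mean after induction and more than 4 times the mean in the lymphoid cells. Of 17108 Ensembl genes, 51 met the 3 limits. The cells before and after induction and the lymphoid cells were all used in this choice, so every comparison among them is a description of the members and none is a test of them.

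Total RNA depleted of rRNA had been sequenced from 2 biological replicates of each of 3 cell types. HD3dif were HD3 cells kept for 14 h at 42 °C in medium that held 10 mM HEPES, a buffer, and 20 µM of the inhibitor iso-H-7. The study used this treatment as a whole to induce terminal erythroid differentiation. HD3pr were proliferating cells of the same line, clone A6 of the LSCC erythroblasts transformed by avian erythroblastosis virus, grown at 37 °C. DT40, a bursal lymphoma line induced by avian leukosis virus in a Hyline SC chicken, was grown at 37 °C. Induction also took place in air, where growth had been under added CO2. The inhibitor, the buffer, the temperature and the gas changed together, so their effects cannot be told apart. Each cell type is a single line, so HD3 stands for erythroid cells and DT40 for lymphoid cells through 1 line each.

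Avian erythroblastosis virus carries v-erbA, an altered thyroid hormone receptor, and v-erbB, an altered growth factor receptor, which together hold red cell precursors in a dividing, immature state. Iso-H-7 is a protein kinase inhibitor. During terminal erythroid differentiation, genes of the dividing progenitor are turned down while globin and heme synthesis genes rise, and chicken red cells keep a condensed nucleus.

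Gene names could not be given to the members. The count tables name genes only by Ensembl identifier, and 0 of these identifiers were found in the RefSeq gene table used here. The members are therefore described by their levels, and no function is given for any of them. The lists of pathway and cell type marker genes that had been drawn up by symbol could not be applied either. For 27 genes of the studied region of chromosome 14 the study's own table of names allowed a pairing with an identifier through the counts. One of them is an erythroid marker, the embryonic alpha-type globin gene HBZ. HBZ had 49.8 and 48.3 CPM in the HD3dif libraries, 5.89 and 4.47 CPM in the HD3pr libraries, and 0 reads in both DT40 libraries. The label of the HD3 cells was thus checked against 1 marker only.

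Reads assigned to genes numbered 20100063 and 24054973 in HD3dif, 30576844 and 29784807 in HD3pr, and 28726204 and 33433279 in DT40. Aligned reads that the counting placed in no gene feature made up 45.9% to 46.6% of all reads in HD3dif. They made up 33.3% to 34.1% in HD3pr and 26.9% to 28.7% in DT40. This share moved with the cell types. Whether such reads lay within or between genes was not examined. On CPM of all reads, 0 of the 51 members missed the limit on the fall (median ratio of HD3pr to HD3dif 5.63), 3 missed the limit on DT40, and 15 missed 10 CPM in HD3pr, a limit that was not rescaled. In bulk RNA, a smaller number of cells that transcribe a gene and a smaller amount of its RNA per cell cannot be told apart. Counting error covers only the sampling of reads. Sampling alone gives a mean chi-square of about 1 per gene and a lower median, and replicates differed by more. The mean chi-square per member was 2.89 in HD3dif and 3.24 in HD3pr (medians 1.54 and 1.37, 51 members), and 3.51 in DT40 (median 1.12, 35 members with at least 10 reads over both libraries). Over all genes with as many reads the means were 7.89 in HD3dif, 4.23 in HD3pr and 12.8 in DT40.

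Of the genes, 7065 reached 10 CPM in HD3pr. Of these, 266 fell to the limit or below it on induction, and 834 lay more than 4 times above DT40. The 51 members are the overlap of these sets. They made up 6.12% of the 834 genes that were high relative to DT40. Among the 6231 genes that were not, 215 genes (3.45%) fell as far. These shares describe the sorting and were not tested.

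**Figure D1:**
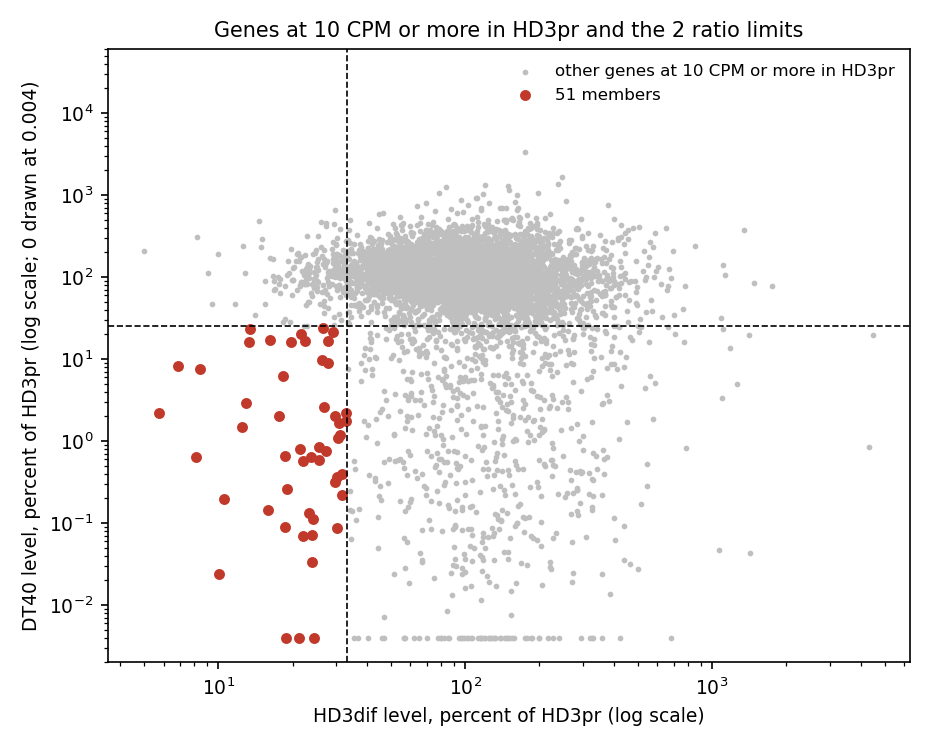
The level in HD3dif (horizontal) and in DT40 (vertical), each as a percent of the HD3pr mean on log scales, for the 7065 genes at 10 CPM or more in HD3pr. Dashed lines are the limits of 3 times HD3dif and 4 times DT40, and the 51 members (red) fill the lower left corner, with 3 of them at 0 reads in DT40.

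RNA of the members was still present after 14 h of induction. RNA levels do not show how far transcription itself went on. Their mean level in HD3dif was a median 23.3% of that in HD3pr, with a range of 5.76% to 32.9%. The median level over the members, taken separately in each cell type, was 9.22 CPM in HD3dif and 45.0 CPM in HD3pr. In HD3dif, 24 of the 51 members still had 10 CPM or more, 34 had 5 CPM or more, and only 1 had a mean below 1 CPM. The smallest number of reads for any member in an HD3dif library was 13, so every member was detected in both. For most members the fall in RNA level was thus partial, but the rule used these values. It asked only for 10 CPM in HD3pr and a fall of at least 3 times. How much RNA remained therefore follows in part from these limits.

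The depth of the fall varied. HD3pr levels were at least 4 times those in HD3dif for 31 members, at least 5 times for 19 and at least 10 times for 4. In all 51 members the higher HD3dif library lay below the lower HD3pr library, as it did in 34.1% of the 10898 genes tested. The rule used these values, so nothing is read from that count. Between these 2 libraries the ratio was 3 or more in 43 members, and its lowest value was 2.62. The quasi-likelihood test of edgeR places 51 of 51 members past a log2 fold change of 0.6 and an adjusted p of 1e-07 for lower levels in HD3dif, where 18.6% of the genes tested were called lower. That count too follows from the rule.

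**Figure D2:**
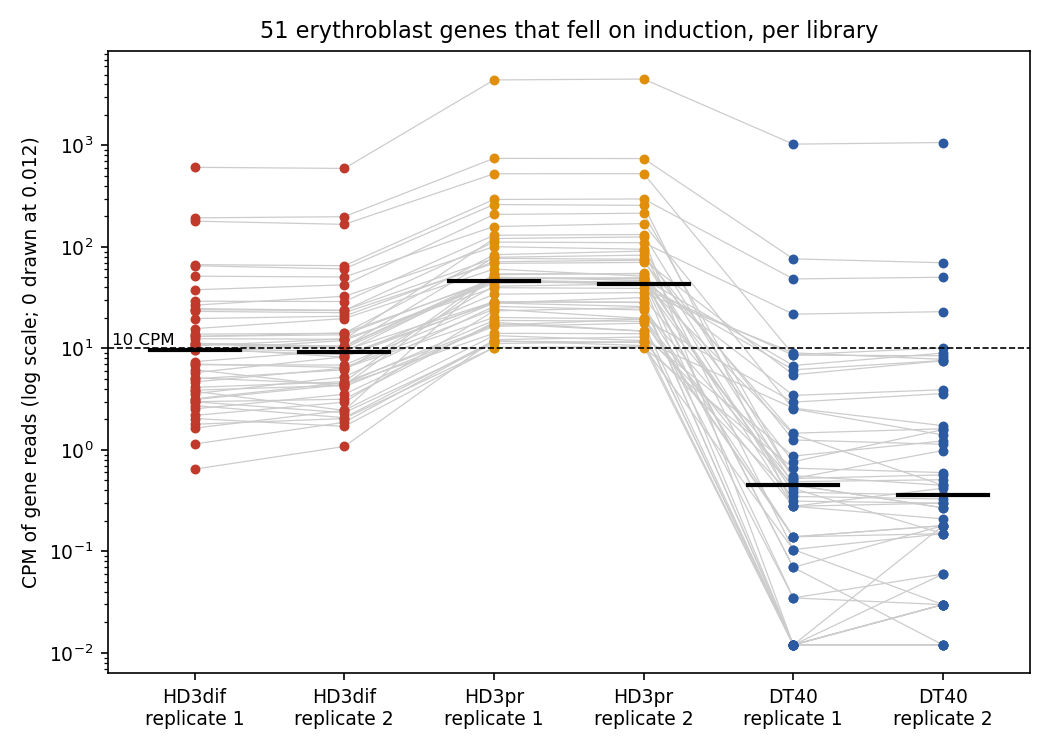
CPM of gene reads (log scale) of the 51 members in the 6 libraries, 1 point per member and library, grey lines joining the values of a member and black bars marking the median. The medians lie just under 10 CPM (dashed line) in HD3dif, near 45 CPM in HD3pr and below 1 CPM in DT40.

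The deepest falls were those of 2 members of middle and low abundance. Both were picked for the largest ratios of HD3pr to HD3dif, values that the rule used. The sizes of their falls may thus be overstated, and the SEs do not cover this choice. ENSGALG00000001933 had 3.78 and 2.45 CPM in HD3dif, 53.4 and 54.9 CPM in HD3pr, and 0.766 and 1.59 CPM in DT40. Its HD3dif level was 5.76% of that in HD3pr, a log2 fold change of −4.39 (SE 0.16) in the edgeR fit. The HD3dif and HD3pr libraries were far apart, and both HD3dif values rest on fewer than 100 reads (76 and 59).

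ENSGALG00000010323 had 0.647 and 1.08 CPM in HD3dif, 12.2 and 12.96 CPM in HD3pr, and 0.870 and 1.23 CPM in DT40. Its log2 fold change of HD3dif over HD3pr was −4.08 (SE 0.24). This was the only member with a mean below 1 CPM after induction, and its HD3dif and DT40 libraries overlapped.

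A single gene dominated the reads of the set. The most abundant member had 609 and 594 CPM in HD3dif, 4420 and 4511 CPM in HD3pr, and 1030 and 1069 CPM in DT40. Its HD3dif level was 13.5% of that in HD3pr, and it ranked 10 of 51 by depth of fall. It was also one of the members closest to the DT40 limit, with a DT40 level of 23.5% of that in HD3pr. Its RNA was thus abundant in both lines, and its excess in HD3pr is one of degree.

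The next 3 members by abundance kept substantial levels after induction. The second had 193 and 199 CPM in HD3dif, 746 and 743 CPM in HD3pr, and 76.3 and 69.8 CPM in DT40. The third had 180 and 167 CPM in HD3dif, 526 and 528 CPM in HD3pr, and 8.67 and 10.1 CPM in DT40. That gene fell least of all members, to 32.9% of its HD3pr level. The fourth had 66.9 and 65.4 CPM in HD3dif, 294 and 297 CPM in HD3pr, and 48.4 and 50.3 CPM in DT40. Replicates of a cell type lay close together in all 3, and the cell types did not overlap.

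Summed over the 51 members, the level was 1601 ± 3.72 CPM in HD3dif, 8562 ± 66.7 CPM in HD3pr and 1266 ± 29.1 CPM in DT40 (SD, n = 2 each). The set thus took 0.160% of gene reads after induction and 0.856% before it. The most abundant member alone made up 37.6% of the sum in HD3dif, 52.2% in HD3pr and 82.9% in DT40. Without it, the other 50 members summed to 999 ± 6.76 CPM in HD3dif, 4096 ± 2.37 CPM in HD3pr and 216 ± 1.47 CPM in DT40. The ratio of the sums of HD3dif to DT40 was 1.26 with that gene and 4.62 without it, an alternative added after the data were seen.

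**Figure D3:**
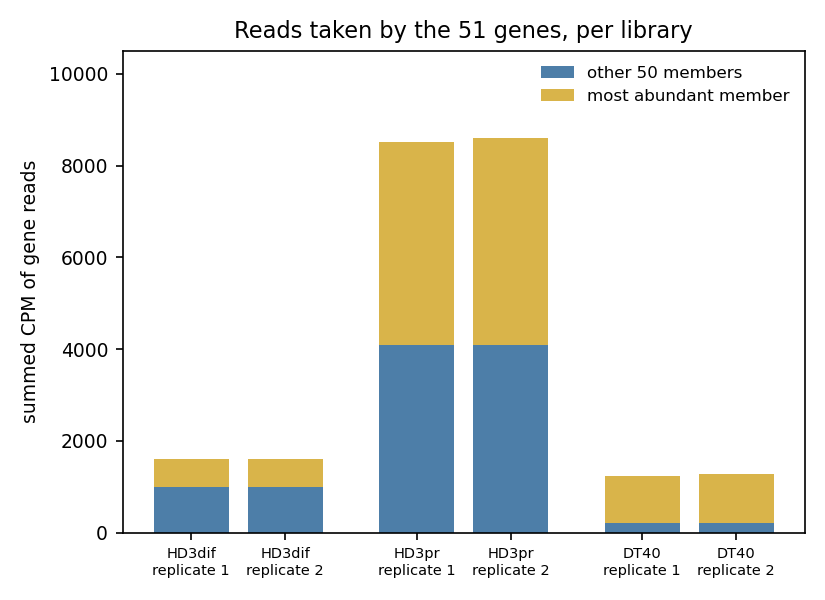
Summed CPM of gene reads of the 51 members in each library (bars from 0), split into the most abundant member (yellow) and the other 50 (blue). Of the 3 cell types HD3pr has the tallest bars, and in DT40 most of the sum (82.9%) belongs to the most abundant member.

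In DT40 most members were low. The mean was below 1 CPM in 33 of 51 members and below 0.1 CPM in 13. The DT40 level was under 1% of the HD3pr level in 26 members and at least 10% in 9. Both DT40 libraries had 0 reads for 3 members, and a further 8 had 1 to 3 reads over both libraries. For the 3 members without reads, a floor of 3 reads over both DT40 libraries together (0.0483 CPM) gives levels at least 594-fold, 335-fold and 234-fold higher in HD3pr.

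Members near the limits show how far their choice rests on small differences. The 2 members with the lowest HD3pr levels had 10.2 and 10.3 CPM, and the 2 genes just below the limit had 9.72 and 9.13 CPM. The 2 smallest ratios of HD3pr to HD3dif among members were 3.04 and 3.05, and the 2 genes next outside had 2.99 and 2.94. The 2 highest DT40 levels among members were 24.2% and 23.5% of HD3pr, and the next 2 genes outside both had 25.6%.

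The limits were also applied to the libraries of 1 replicate number and read in the other. From the replicate 1 libraries alone 56 genes were chosen, and 43 of them (76.8%) met all limits in the replicate 2 libraries. From the replicate 2 libraries 49 genes were chosen, and 43 (87.8%) met the limits in the replicate 1 libraries. These counts describe how the choice depends on the library and are no test of the fall.

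HD3dif was also set beside DT40, to describe whether the level after induction had come down to that of the lymphoid line. The rule limited both cell types relative to HD3pr, and more strictly DT40, so this contrast is not independent of the choice and its counts are a description. Most members were higher in HD3dif. By edgeR (quasi-likelihood, TMM scaling, Benjamini-Hochberg adjusted p below 1e-07 and log2 fold change beyond 0.6), 37 of 51 members were higher in HD3dif, 1 was lower and 13 passed in neither direction. Over all 10898 genes tested, 27.3% were called higher and 27.1% lower. These shares are no like background, because a DT40 level low relative to HD3pr was itself a condition of the choice. Of the 783 other genes that met the limits on HD3pr and DT40, 779 were called higher. All 51 members passed the filter on low counts, and also did so on the HD3dif and DT40 libraries alone.

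The median log2 fold change of HD3dif over DT40 was 4.61 over the members and 0.04 over all genes tested. Over the 783 other genes that met the limits on HD3pr and DT40 it was 5.95, above that of the members. The median over the members was also 4.61 with the 3 members without DT40 reads set at their floor. The libraries did not overlap, with both HD3dif libraries higher, in 45 members, where 51% of all genes tested had such a split. They were split the other way in 2 members, beside 43% of all genes, and overlapped in 4. These library counts use plain CPM and the fold changes TMM scaling, so that 1 member with both HD3dif libraries higher, by little, had a fitted log2 fold change just below 0.

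**Figure D4:**
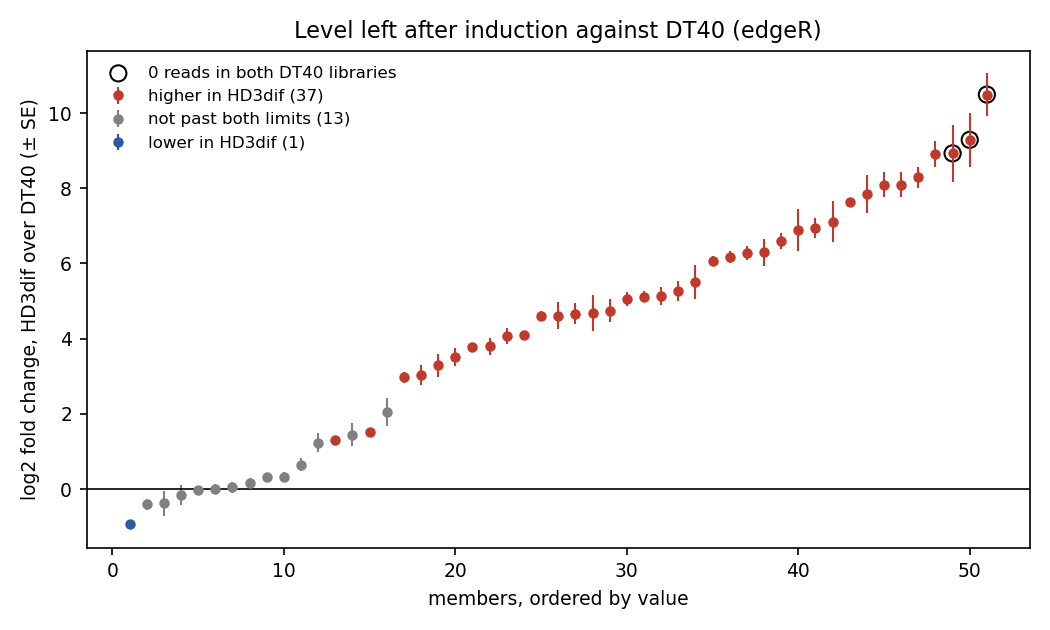
Log2 fold change of HD3dif over DT40 (edgeR, bars ± SE) for each member, ordered by value, with 37 members past both limits in red, 1 in blue and 13 in grey. Circled members had 0 reads in both DT40 libraries, and their fitted values depend on the prior count and are no bound.

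The 37 members that were higher in HD3dif had a median of 10.6 CPM in HD3dif and 0.244 CPM in DT40. DT40 was below 1 CPM in 31 of them. The largest excesses of HD3dif over DT40 among members with DT40 reads were those of 2 genes almost absent from DT40. ENSGALG00000021021 had 11.1 and 10.5 CPM in HD3dif, 47.2 and 42.8 CPM in HD3pr, and 0 and 0.0299 CPM in DT40, where a single read was counted. The HD3dif level was 670 times that of DT40, with an exact 95% counting interval of 120 to 26520. The edgeR log2 fold change was 8.92 (SE 0.35), a value that depends on the prior count and was 8.11 without DT40 replicate 1 and 11.02 without DT40 replicate 2.

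ENSGALG00000011274 had 12.5 and 12.3 CPM in HD3dif, 121 and 126 CPM in HD3pr, and 0 and 0.0598 CPM in DT40, from 2 reads. The ratio of HD3dif to DT40 was 385 with a counting interval of 106 to 3187, and the log2 fold change was 8.29 (SE 0.28), with 7.41 without DT40 replicate 1 and 11.22 without DT40 replicate 2. This gene fell to 10.1% of its HD3pr level on induction. Both genes were thus above DT40 after falling, with no overlap between the libraries of any cell types.

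The 1 member that was lower in HD3dif than in DT40 was the most abundant one, with a log2 fold change of −0.92 (SE 0.05) and no overlap between libraries. The 13 members that passed in neither direction had a median of 5.54 CPM in HD3dif and 3.68 CPM in DT40, and DT40 was at 1 CPM or more in 11 of them. Their log2 fold changes ran from −0.41 to 2.05, 9 above 0 and 4 below. Of these 13, 4 lay beyond a log2 fold change of 0.6, and 7 had an adjusted p below 0.05 (edgeR, Benjamini-Hochberg). At that p and without a fold limit, 43 of the 51 members were higher and 2 lower in HD3dif, beside 45.8% and 43.5% of all genes tested. The 2 deepest falls on induction were among the 13, with log2 fold changes of HD3dif over DT40 of 1.24 (SE 0.26) for ENSGALG00000001933 and −0.38 (SE 0.33) for ENSGALG00000010323. The value of ENSGALG00000010323 was 0.0072 without HD3dif replicate 1, and with an SE of 0.33 for all libraries no direction can be read from it. Missing the limits does not show that these levels were alike. Without HD3dif replicate 2, 28 members were called higher than DT40 and 1 lower, while over all 10314 genes of that fit 2182 were called higher and 2224 lower, fewer than the 2973 and 2958 with all libraries.

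The set was compared with the 215 genes that fell as far but were not lower in DT40 by the limit, and with the 783 genes that were high relative to DT40 but did not fall as far. The values in these comparisons were used to form the sets, so they are given without a test. The members were less abundant than the 215 genes, with medians of 9.22 and 38.7 CPM in HD3dif and of 45.0 and 159 CPM in HD3pr. HD3dif levels were a median 23.3% of HD3pr in the members and 26.8% in the 215 genes. The HD3pr median of the 783 genes, 44.6 CPM, was close to that of the members, while their HD3dif median was 58.6 CPM. Past both limits of the edgeR fit, HD3dif was higher than DT40 in 37 of the 51 members and in 779 of the 783 genes. It was lower than DT40 in 1 member and in 204 of the 215 genes. The limit on DT40 separates these sets, so these counts follow in part from the choice.

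Among the 27 paired genes of the chromosome 14 region, 0 were members and 0 fell to the limit on induction. Of the 27, 19 reached 10 CPM in HD3pr, and 2 of these also met the limit on DT40. Over all genes at 10 CPM or more in HD3pr, 3.77% fell to the limit and 0.722% were members. With so few paired genes, nothing about the region is read from the counts of 0. The gene named here was chosen after its values were seen. The largest fall among the paired genes was that of PMM2, a phosphomannomutase of protein glycosylation, with 55.1 and 54.9 CPM in HD3dif, 129 and 126 CPM in HD3pr, and 130 and 135 CPM in DT40. PMM2 thus missed the limits on the fall and on DT40, and its HD3pr and DT40 values lay close together.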

How the data were processed

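RNA-seq was analysed for 2 libraries each of HD3dif, HD3pr and DT40. Per the study's methods and the labels, the authors aligned reads to galGal4 with TopHat2 2.0.12, using Ensembl release 82 genes. They deposited raw counts of reads per gene from HTSeq. The labels also list Bowtie2 2.2.1, a version that the paper gives for the C-TALE maps. Whether the counting used the strand is not given in the sources used here, so genes that overlap on opposite strands are uncertain. Rows for reads not assigned to a gene, 44.6% to 67.0% of all reads, were left out of totals and tests. They include reads without a unique alignment, 15.5% to 21.9% of all reads, and reads ambiguous between genes. Coverage tracks, 5C and C-TALE maps were not used here, since the members cannot be placed on galGal4.

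The quasi-likelihood test of edgeR 4.0.16, run in R 4.3.3 with TMM factors, was applied to the counts of all 6 libraries, with CPM above 1 in at least 2 of 6 required. The SE is the log2 fold change divided by the square root of F. The fit was also run on simulated counts that had the same spread for all genes and changes only in genes with many reads. That run says nothing about members with few DT40 reads. DESeq2 1.42.0 and other scalings, filters and sample sets served as alternatives. Tables and figures used Python 3.11.15 with pandas 2.3.3 and matplotlib 3.10.9.

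Members and gene lists were chosen with earlier results of these data known. Lists by symbol could not be applied. Identifiers printed are the 2 members with the deepest fall and the 2 called members with the largest excess of HD3dif over DT40. Members at 0 reads in DT40 were left out of the latter. To name region genes, counts were worked back from the study's table, with each library total adjusted slightly so that they came near whole numbers. A name was paired where these counts matched 1 identifier in the replicate 1 libraries within 0.5 read plus 5e-05 of the count. The paper describes the values of that table as averages over replicates, while the pairing used replicate 1 counts.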

Additional observations from a re-analysis of the deposited data

How the results depend on the processing

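The number of genes that met the rule depended on scaling. It was 74 with TMM-scaled CPM and 68 with RLE factors, each with all 51 members among them. TMM scaling raised the ratio of HD3pr to HD3dif 1.19-fold in every member, to a median of 5.10. With CPM of all reads, unassigned ones included, 54 genes met it and 33 of them were members. Of the 18 lost, 15 missed 10 CPM in HD3pr, which was not rescaled, 3 missed the limit on DT40 and 0 that on the fall. The most abundant member was among the 3, with a DT40 level of 28.3% of HD3pr. A limit of 5 times HD3dif left 19 genes, 20 CPM in HD3pr left 37, and the less favourable library of each type left 42. Leaving out 1 library gave 49 to 54 genes.

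Against DT40, the 37 members called higher in HD3dif became 35 with DESeq2, 34 with the 2 cell types alone, and 28 to 37 with 1 library left out, the lowest without HD3dif replicate 2. With an adjusted p below 0.05 and no fold limit, 43 were higher and 2 lower. In the other fits 1 was lower. The log2 fold change of ENSGALG00000010323, −0.38 with all libraries, ran from −0.82 (without HD3dif replicate 2) to 0.0072 (without HD3dif replicate 1), and the cause was not tested. A library left alone in its cell type was assumed to vary like the others. With the replicate number as a block, 36 were higher and 1 lower. Deviations of same-numbered libraries were nearly uncorrelated (r −0.058 to 0.050 over 10898 genes). Read sampling weakens such a correlation, so whether same-numbered libraries shared a batch cannot be told from it.

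Library totals in place of TMM gave a median log2 fold change of HD3dif over HD3pr of 0.28 over all genes, against 0.03 with TMM, and 1968 genes were called higher and 1395 lower, against 1306 and 2030 with TMM. The alternatives planned for gene lists were not run, as only the 27 paired genes of the region had a symbol.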
